A study of Mus musculus with 12 samples.

Results

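Integrins are the receptors with which cells of the vessel wall hold on to their basement membrane and to each other. Each is a pair of 1 alpha and 1 beta chain, and the alpha chain largely sets the ligand. The beta 1 chain, encoded by Itgb1, pairs with the alpha chains of Itga1 (collagen and laminin), Itga4 (fibronectin and VCAM-1), Itga5 (fibronectin), Itga6 and Itga7 (laminins) and Itga8 (nephronectin and other RGD proteins). The chain encoded by Itgav pairs with beta 3 and beta 5, from Itgb3 and Itgb5, as receptors of vitronectin and related proteins. These 10 genes are described here in small brain vessels of mice without Notch3, a receptor that is made by smooth muscle cells and pericytes and is needed for mature arterial smooth muscle.

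RNA of microvascular fragments from cerebrum and from cerebellum was hybridised to Affymetrix Mouse Genome 430 2.0 arrays. The labels number the replicates of each group and do not say which arrays share a mouse. The replicate number within a genotype was taken as the mouse, which gives 6 mice with 1 array per region. The 4 groups were knockout cerebral, control cerebral, knockout cerebellar and control cerebellar vessels, with 3 arrays each, 12 in all. The 6 mice were 2 months old and on C57BL/6: 3 were Notch3 knockouts and 3 their wild-type littermates, with no other allele or treatment given. The making of the knockout line, and with it whether the loss reaches beyond vessels, is not described in the labels. The arrays give log2 expression values, and they measured whole fragments, so fewer cells of a type and less RNA per cell cannot be told apart. The values of 1 probe set are not comparable with those of another, so levels are compared across arrays within a gene and not between genes.

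Members were the probe sets annotated to 1 of the 10 genes alone, 33 of the 45101 on the array, and each gene was represented by its brightest probe set on average. Of the 10 genes, 9 passed the filter on low values and were tested among 11716 genes. Itga5 was the exception: its 4 probe sets lay at or under 3.10 on every array, below the median of all values, 3.27. A gene is said to be called when limma's adjusted p, by the Benjamini-Hochberg method over all 11716 genes, was at most 0.05.

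The labels were checked on Notch3. Its brighter probe set gave 2.48 to 3.58 in the knockout arrays and 10.84 to 12.02 in the control arrays. Correlations between arrays of 1 group were 0.991 to 0.996 over the 11716 tested genes. Differences between genes keep such values high, so they cannot show whether an array deviates. The mean log2 level of 10 endothelial markers differed by 0.05 in cerebral and 0.08 in cerebellar vessels between knockout and control. The mean of 12 smooth muscle markers was 9.46 to 9.64 in knockout cerebral, 10.47 to 10.81 in control cerebral, 9.57 to 9.85 in knockout cerebellar and 10.61 to 11.00 in control cerebellar vessels. Of these 12 markers, 9 were called lower in knockout cerebral and 10 in knockout cerebellar vessels, beside 3.93% and 3.17% of all genes.

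Among the 9 integrin genes tested, the knockout changed 1, the laminin receptor gene Itga7. It was called lower in both regions, by 2.99-fold in cerebral and 2.66-fold in cerebellar vessels, and the other 8 were called in neither. In cerebral vessels the members had 1 call of 9, beside 6.38% of all genes, and in cerebellar vessels 1 of 9, beside 4.22%. The members' median log2 change was -0.09 in cerebral vessels, against -0.01 over all genes, and -0.23 in cerebellar vessels, against 0.01. The median size of the change, whatever its sign, was 0.32 for the members and 0.11 for all genes in cerebral vessels, and 0.23 and 0.10 in cerebellar vessels. The members' median size was the value of 1 uncalled gene in each region. It was that of Itgb3 in cerebral vessels (95% interval -0.515 to 1.160) and of Itga4 in cerebellar vessels (-0.678 to 0.225). With 1 mean of its regions for each mouse, 3 knockouts against 3 controls, again Itga7 alone was called, beside 4.03% of all genes. The median size of the change on these mouse means was 0.110 for the members and 0.095 for all genes.

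**Figure D1:**
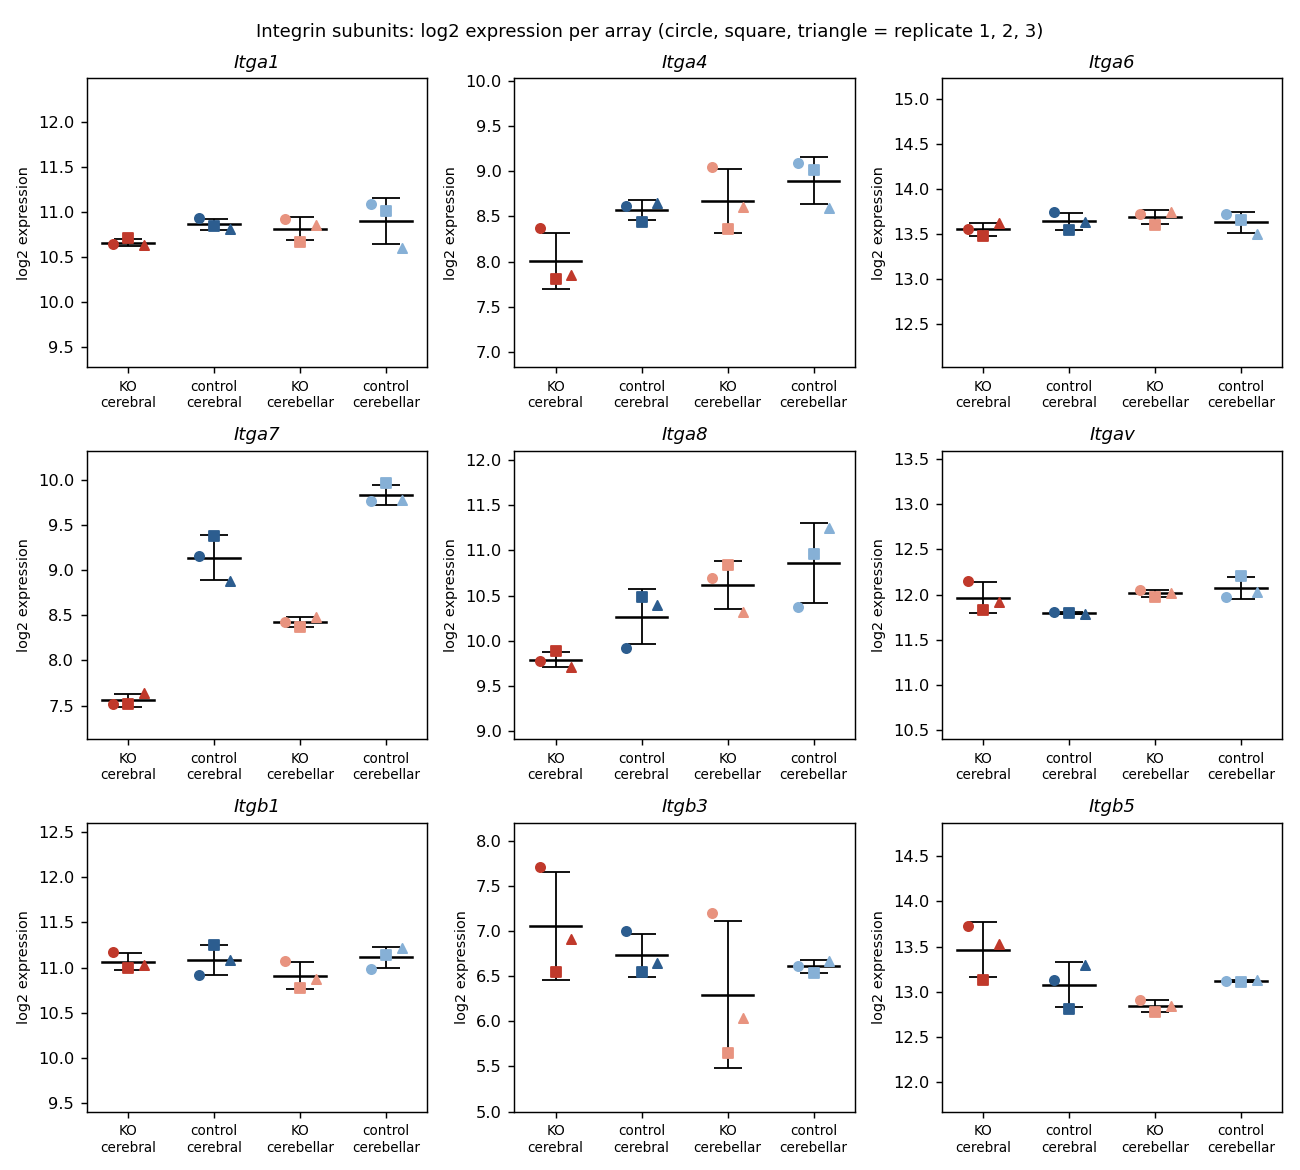
Log2 expression of the 9 tested integrin genes on each of the 12 arrays, by group (KO, knockout). Marker shape gives the replicate, the bar the group mean and the whisker 1 SD (n = 3), and each panel spans the same number of log2 units. The 4 groups of Itga7 do not overlap, with knockout cerebral vessels lowest (7.51 to 7.64) and control cerebellar vessels highest (9.77 to 9.96).

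Itga7 encodes the alpha 7 chain, which with beta 1 forms a laminin receptor of skeletal, cardiac and smooth muscle. Its only probe set gave 7.51, 7.52 and 7.64 in knockout cerebral vessels, against 9.16, 9.38 and 8.88 in control cerebral vessels. In cerebellar vessels it gave 8.42, 8.37 and 8.48 in the knockout, against 9.77, 9.96 and 9.77 in the control. Every knockout array lay under every control array, across regions too, and none of the 4 groups overlapped with another. From low to high the order was knockout cerebral, knockout cerebellar, control cerebral and control cerebellar vessels.

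In cerebral vessels the log2 change of Itga7 was -1.58 (SE 0.11, 95% interval -1.83 to -1.33), with an adjusted p of 2.07e-05 in limma. In cerebellar vessels it was -1.41 (SE 0.11, 95% interval -1.66 to -1.16), with an adjusted p of 4.49e-05. By size of change Itga7 ranked 101 of 11716 genes in cerebral and 102 in cerebellar vessels. The difference between the knockout effects of the regions, cerebellar minus cerebral, was 0.17 (95% interval -0.18 to 0.52) and was not called. Itga7 remained called when any 1 array was left out, with log2 changes in cerebral vessels from -1.71 to -1.46 and in cerebellar vessels from -1.44 to -1.35. No second probe set was there to check it.

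Over the 12 arrays, the genes whose levels were most like those of Itga7 were Mrvi1 (Pearson r = 0.989), Gucy1a1 (r = 0.986) and Ndufa4l2 (r = 0.984). Mrvi1 encodes a protein of the cyclic GMP pathway of smooth muscle, and Gucy1a1 a chain of the nitric oxide receptor guanylate cyclase. Ndufa4l2 is used as a pericyte marker and is one of the pericyte list given below. In knockout vessels Mrvi1 changed by -1.39 (cerebral) and -1.27 (cerebellar) on the log2 scale. Gucy1a1 changed by -1.23 and -0.998, and Ndufa4l2 by -1.55 and -1.29, all 6 called in limma. These correlations describe 12 arrays that fall into 4 groups, and the arrays of a mouse share their animal.

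**Figure D2:**
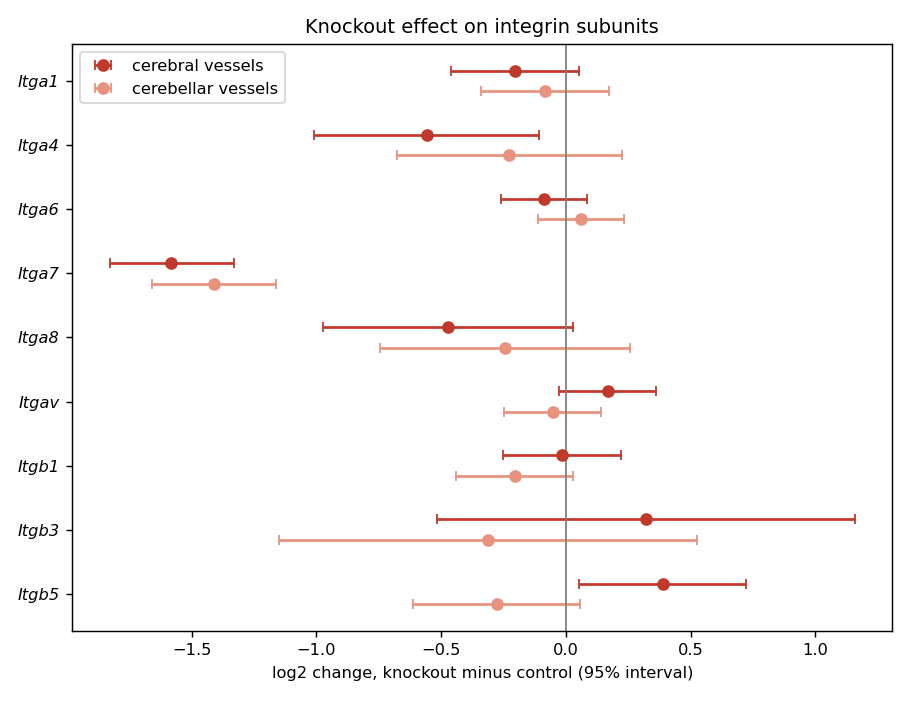
Log2 change of each tested integrin gene, knockout minus control, in cerebral and in cerebellar vessels, with 95% intervals from the fit over 12 arrays. The intervals of Itga7 lie below 0 in both regions (-1.83 to -1.33 cerebral, -1.66 to -1.16 cerebellar), and those of the other genes are nearer to 0 or include it.

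The other alpha chains that pair with beta 1 had smaller changes, none of them called. Itga4, whose product binds VCAM-1 and fibronectin, gave 8.37, 7.80 and 7.85 in knockout cerebral vessels, against 8.62, 8.44 and 8.64 in control cerebral vessels. These groups did not overlap, and the log2 change was -0.56 (SE 0.20, 95% interval -1.01 to -0.11) with an adjusted p of 0.148 in limma. In cerebellar vessels it gave 9.05, 8.36 and 8.61 in the knockout, against 9.09, 9.01 and 8.60 in the control, with overlap and a change of -0.23. A dim second probe set, with a mean of 3.93, changed by -0.50 in cerebral and -0.53 in cerebellar vessels, and another, with a mean of 3.45, by -0.015 and 0.008, none of them called.

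Itga8 encodes the alpha 8 chain, which is found on smooth muscle and mesenchymal cells. It gave 9.77, 9.89 and 9.71 in knockout cerebral vessels, against 9.91, 10.48 and 10.40 in control cerebral vessels. Here too the groups did not overlap, with a change of -0.47 (SE 0.23, 95% interval -0.98 to 0.03) and an adjusted p of 0.270. Its cerebellar values were 10.69, 10.84 and 10.32 in the knockout, against 10.37, 10.96 and 11.25 in the control, with overlap and a change of -0.24.

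Itga1, whose product binds collagen and laminin, gave 10.64, 10.71 and 10.64 in knockout cerebral vessels, against 10.94, 10.84 and 10.82 in control cerebral vessels. The groups lay close together without overlap (change -0.20, adjusted p = 0.367). Cerebellar values lay between 10.67 and 10.92 in the knockout, against 10.60 to 11.09 in the control. On a second probe set of Itga1, with a mean of 9.05, the cerebral groups overlapped. Its changes were -0.08 in cerebral and -0.12 in cerebellar vessels. Itga6, which marks endothelial cells among others, stayed within 13.48 to 13.74 on all 12 arrays. Its changes were -0.09 in cerebral vessels (95% interval -0.26 to 0.08) and 0.06 in cerebellar vessels (-0.11 to 0.23). A second probe set of Itga6, with a mean of 13.25, changed by -0.09 in cerebral and -0.14 in cerebellar vessels, neither called. Itgb1, the beta chain that all these alpha chains share, lay between 10.78 and 11.25 on all arrays. Its changes were -0.01 in cerebral vessels (95% interval -0.25 to 0.22) and -0.21 in cerebellar vessels (-0.44 to 0.03), and its order of groups held no step without overlap. A second bright probe set of Itgb1, with a mean of 10.57, changed by 0.19 and -0.13. Its dimmer ones that passed the filter changed by -0.06 to 0.08, and none of these was called.

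Groups that did not overlap were seen in 5 of the 9 genes in cerebral vessels, beside 24.4% of all genes. They were Itga1, Itga4, Itga7, Itga8 and Itgav. In cerebellar vessels they were seen in 2 of 9, Itga7 and Itgb5, beside 22.1% of all genes. These counts rest on 1 probe set per gene. For Itgb5 in cerebellar vessels, the probe set with a mean of 12.24 did not overlap either (knockout up to 12.15, control from 12.20). Those with means of 12.53 and 12.43 did overlap (knockout up to 12.40 and 12.38, control from 12.31 in both).

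The genes of the alpha v receptors were not called in either region. Itgav gave 12.16, 11.83 and 11.91 in knockout cerebral vessels, against 11.81, 11.79 and 11.79 in control cerebral vessels. The change was 0.17 (95% interval -0.03 to 0.36), and in cerebellar vessels it was -0.05. Itgb3, whose product serves on platelets and on activated endothelium, had the widest spread of the 9 genes within each knockout group (SD 0.597 in cerebral and 0.811 in cerebellar vessels, against 0.237 and 0.068 in the control groups). It gave 7.71, 6.55 and 6.91 in knockout cerebral vessels, against 6.999, 6.55 and 6.65 in control cerebral vessels. Cerebellar values were 7.21, 5.65 and 6.04 in the knockout, against 6.61, 6.54 and 6.67 in the control. The change was 0.32 in cerebral vessels (95% interval -0.52 to 1.16) and -0.31 in cerebellar vessels (-1.15 to 0.53), and replicate 1 was the highest knockout array in both.

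Itgb5, the beta 5 chain, had values in knockout cerebral vessels of 13.73, 13.13 and 13.53, against 13.13, 12.81 and 13.30 in control cerebral vessels. In cerebellar vessels it had 12.91, 12.77 and 12.84 in the knockout, against 13.12, 13.10 and 13.13 in the control. The knockout arrays were thus on average above the control in cerebral vessels, with overlap, and all under it in cerebellar vessels. The changes were 0.39 (95% interval 0.05 to 0.72, adjusted p = 0.174) and -0.28 (95% interval -0.61 to 0.06, adjusted p = 0.403). Their difference, cerebellar minus cerebral, was -0.67 (SE 0.21, 95% interval -1.14 to -0.19), with an adjusted p of 0.999 in limma. Its 3 other probe sets gave differences of -0.62, -0.67 and -0.66, with knockout changes of 0.50, 0.54 and 0.49 in cerebral vessels and -0.12, -0.13 and -0.18 in cerebellar vessels. Without knockout cerebral replicate 2, Itgb5 was called higher in knockout cerebral vessels, by 0.56 with an adjusted p of 0.0297. No member was called for a difference of the knockout effect between regions in limma, beside 0.0427% of all genes; Itgb5 was the 1 of 9 with an unadjusted p under 0.05, which 4.66% of all genes had.

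**Figure D3:**
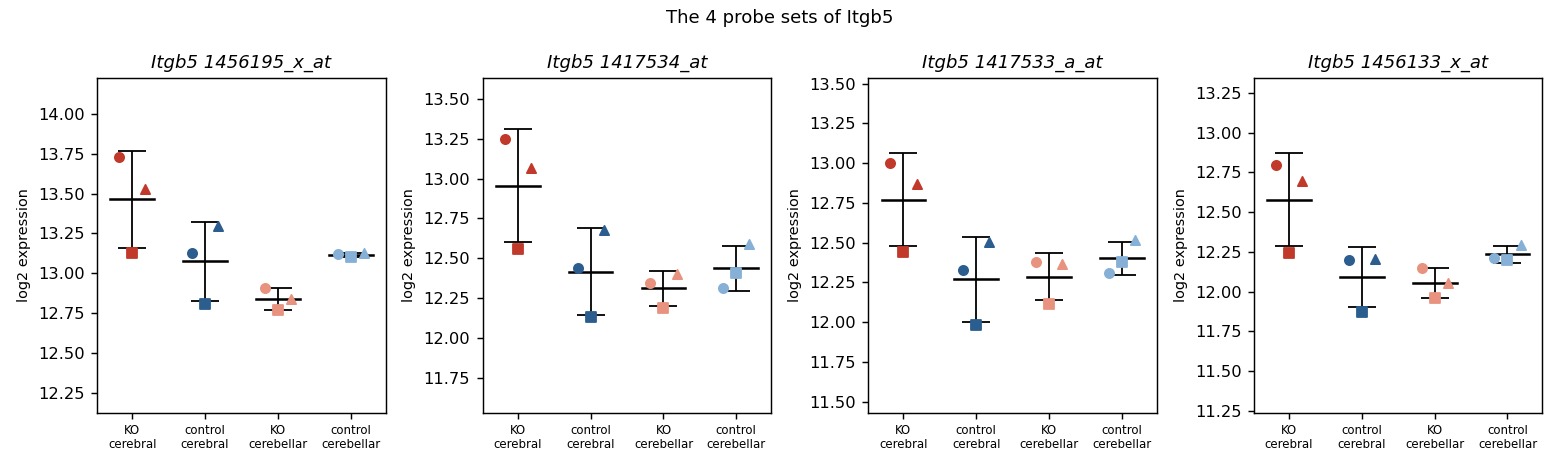
Log2 expression of the 4 Itgb5 probe sets on each array by group (KO, knockout), with marker shape for the replicate, bars for means and whiskers for 1 SD (n = 3). On all 4 the mean was highest in knockout cerebral vessels, with replicate 2 the lowest of that group.

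Between regions, Itga7 was called higher in cerebellar than in cerebral vessels of both genotypes, by 0.87 on the log2 scale in the knockout (adjusted p = 0.0023) and 0.70 in the control (adjusted p = 0.0121). Within mice, its cerebellar level exceeded the cerebral level by 0.91, 0.85 and 0.84 in the knockouts and by 0.61, 0.59 and 0.90 in the controls. The call in controls was lost without control cerebellar replicate 2, where the difference was 0.63 (adjusted p = 0.0590). Itgb5 was called lower in cerebellar vessels of the knockout, by -0.63 (adjusted p = 0.0360), with differences within mice of -0.82, -0.36 and -0.70. In controls its differences were -0.01, 0.30 and -0.17. With every probe set tested on its own in limma, the representative of Itgb5 kept its call in the knockout (adjusted p = 0.0416). Its 3 other probe sets differed in the same direction, by -0.49, -0.65 and -0.52. None of them was called (adjusted p = 0.123, 0.0699 and 0.0589). The knockout call of Itgb5 was lost in 9 of 12 fits with 1 array left out, that is without any 1 of them except control cerebral replicates 2 and 3 and knockout cerebral replicate 2, with an adjusted p of up to 0.129.

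The members had 2 calls of 9 between regions in the knockout, Itga7 and Itgb5, beside 6.80% of all genes, and 1 of 9 in controls, beside 2.29%. Cerebral and cerebellar arrays of a mouse deviated together, so the comparison was also fitted with the mouse as a block, chosen after seeing the data. With this block 5 of 9 were called in the knockout, beside 14.7% of all genes, and 2 of 9 in controls, beside 7.81%. The added calls in the knockout were Itga8 (0.83, adjusted p = 0.0035 against 0.0581 without the block), Itga4 (0.66, 0.0124 against 0.0843) and Itgb3 (-0.76, 0.0057 against 0.291). Of these, Itgb3 was called only with the mouse as a fixed block; with the mouse as a random block its adjusted p was 0.0755. The added call in controls was Itga8, at 0.60 with an adjusted p of 0.0199, against 0.238 without the block.

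Within mice, Itga8 was higher in cerebellar vessels by 0.92, 0.96 and 0.60 in the knockouts and by 0.46, 0.48 and 0.85 in the controls. Itga4 was higher by 0.68, 0.56 and 0.75 in the knockouts, and by 0.47, 0.57 and -0.05 in the controls. Itgb3 differed by -0.51, -0.90 and -0.87 in the knockouts, and by -0.38, -0.01 and 0.02 in the controls. Cerebellar levels were thus above cerebral ones in all 6 mice for Itga7 and Itga8 and in 5 of 6 for Itga4. For Itga4 this rests on its brightest probe set, and its dimmer ones did not bear it out. The one with a mean of 3.93 differed by 0.010 in the knockout and 0.034 in controls. The one with a mean of 3.45 differed by 0.003 and -0.020. Whether these regional differences themselves differ between genotypes is the same test as the difference of knockout effects, which called no member with or without the block.

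**Figure D4:**
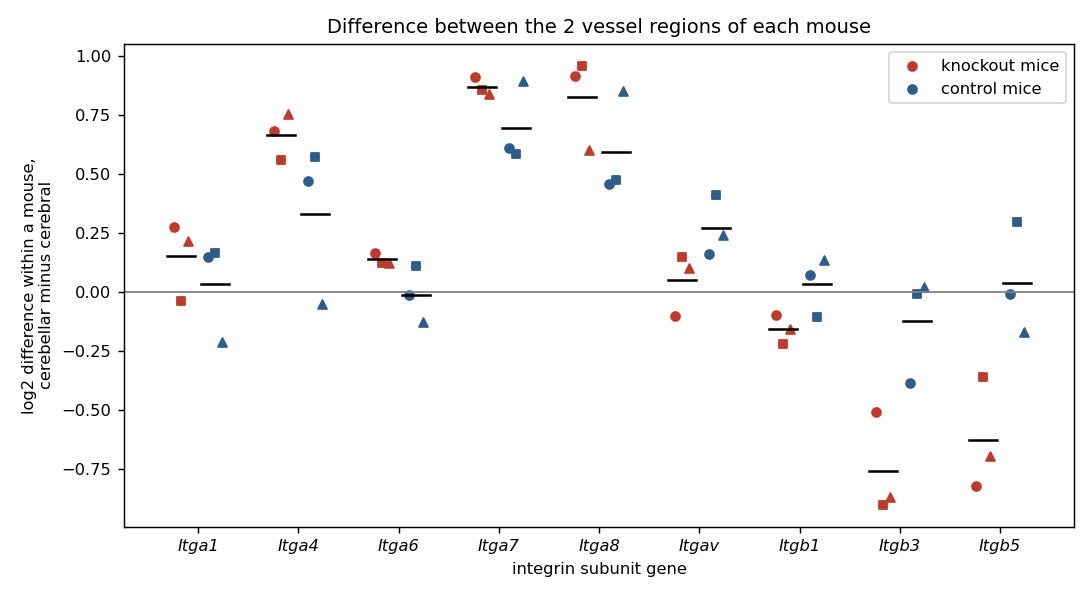
Difference in log2 expression between the cerebellar and the cerebral vessels of each mouse (cerebellar minus cerebral), for the 9 tested integrin genes, by genotype. Marker shape gives the replicate and the bar the mean of 3 mice. Itga7 and Itga8 lie above 0 in all 6 mice, and Itgb3 and Itgb5 below 0 in all 3 knockout mice.

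Marker levels of several cell types moved with these genes, and the part of those cell types in the results was not tested. The mean of 10 pericyte markers was 10.99 to 11.16 in knockout cerebral, 11.65 to 11.80 in control cerebral, 11.57 to 11.84 in knockout cerebellar and 12.18 to 12.40 in control cerebellar vessels. The level of Itga7 over the 12 arrays ran with the mean of the smooth muscle markers (r = 0.93) and of the pericyte markers (r = 0.94). Itga8 and Itga4 ran with the pericyte markers at r = 0.85 and 0.75, and with the fibroblast markers at r = 0.74 and 0.65. Itga8 also ran with the ependymal and choroid plexus markers at r = 0.70. With the microglia and macrophage markers the coefficients were negative, -0.79 for Itga7, -0.80 for Itga8 and -0.67 for Itga4. The mean of 10 microglia and macrophage markers was 11.53 to 12.06 in knockout cerebral, 10.95 to 11.33 in control cerebral, 10.86 to 11.05 in knockout cerebellar and 10.69 to 10.93 in control cerebellar vessels. Of these 10 markers, 3 were called higher in knockout cerebral vessels and none in knockout cerebellar vessels, beside 2.45% and 1.06% of all genes. In the knockout, 7 of them were called lower in cerebellar than in cerebral vessels, beside 2.96% of all genes. Itgb5 ran with this mean at r = 0.81. Itgb3 ran with it at r = 0.62, with the endothelial markers at r = 0.62 and with the 4 tested leukocyte and platelet markers at r = 0.77. In cerebellar vessels the mean of 7 astrocyte markers was 9.96 to 10.22 in the knockout, against 9.52 to 9.78 in the control, and that of 7 neuron markers 6.46 to 6.60, against 5.97 to 6.08. All these coefficients describe 12 arrays in 4 groups and carry no test.

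**Figure D5:**
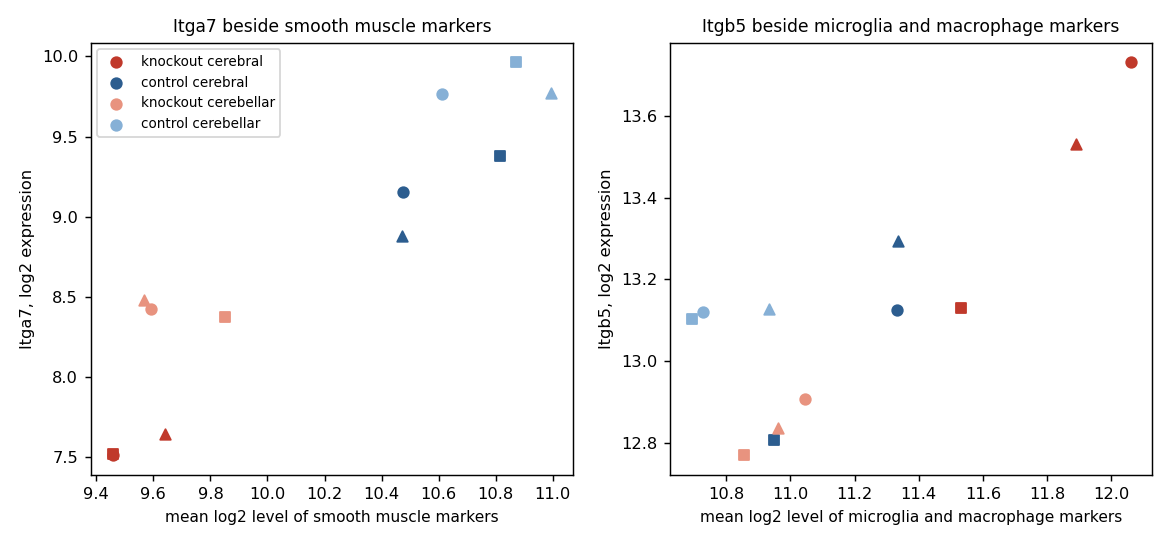
Log2 expression of Itga7 against the mean log2 level of the smooth muscle markers (left), and of Itgb5 against that of the microglia and macrophage markers (right), 1 point per array, with colour for the group and shape for the replicate. The knockout arrays lie at 9.46 to 9.85 on the smooth muscle axis and the control arrays at 10.47 to 11.00.

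The stretches before the gene starts are shown for the 2 members that have a RefSeq entry and stood nearest to a result, Itga4, the member whose levels were most like those of Itga7 (r = 0.721), and Itgb5. Each is 250 bases upstream of the annotated start in GRCm38.p6, on the plus strand, at chr2:79255176-79255425 for Itga4 and chr16:33829415-33829664 for Itgb5. Capitals mark the GC box, GGGCGG or its reverse complement CCGCCC, the element bound by factors of the Sp family.
Itga4: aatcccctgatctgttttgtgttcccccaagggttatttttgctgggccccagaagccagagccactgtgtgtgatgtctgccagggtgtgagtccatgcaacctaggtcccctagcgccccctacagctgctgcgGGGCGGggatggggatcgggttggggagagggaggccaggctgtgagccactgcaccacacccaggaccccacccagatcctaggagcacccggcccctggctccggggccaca
Itgb5: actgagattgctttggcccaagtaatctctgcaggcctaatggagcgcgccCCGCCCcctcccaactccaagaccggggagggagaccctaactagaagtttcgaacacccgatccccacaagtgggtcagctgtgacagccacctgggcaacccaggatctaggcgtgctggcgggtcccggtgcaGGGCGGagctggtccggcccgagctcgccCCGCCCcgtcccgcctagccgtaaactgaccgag

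The GC box stood in 4 of the 7 member windows (Itga4, Itga5, Itgb1 and Itgb5), and in 32.7% of all 32851 windows of that length. The core TGGGAA, or TTCCCA on the other strand, that is bound by RBPJ, the DNA-binding partner of Notch receptors, was in 0 of the 7 member windows and in 21.6% of all. The CArG box, bound by serum response factor in smooth muscle genes, was in 0 of 7 and in 1.5% of all. Itga6, Itga7 and Itgb3 had no window, so Itga7, the member called in the knockout, was not searched for any of these motifs. The window of Itgav, chr2:83724147-83724396, lies inside its gene, whose annotated start is 83722303. That of Itga8 on the minus strand, chr2:12301945-12302194, overlaps its gene, whose annotated end is 12301985. A match or its absence in these windows describes the letters only.

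The 16 other integrin subunits include those of leukocytes, platelets and epithelium. Of these, 8 passed the filter, and none was called in limma in either region of the knockout. An unadjusted p under 0.05 was seen for 2 of 8 in cerebral vessels, beside 20.6% of all genes, and for 1 of 8 in cerebellar vessels, beside 16.8%. The largest change was that of Itgam, the alpha chain of a myeloid receptor, at 1.19 in cerebral vessels (adjusted p = 0.0585), with Itgb2, its beta chain, at 0.99 (adjusted p = 0.0664). Without knockout cerebral replicate 2, 2 of the 8 were called. Next in cerebral vessels were Itga10 (-0.33) and Itga3 (-0.17), and in cerebellar vessels Itga10 (-0.41), Itga2b (0.38), Itgb8 (0.18) and Itgb2 (0.14).

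Between regions the largest difference was that of Itgb8, whose product pairs with alpha v and releases active TGF-beta from its latent form. It was called higher in cerebellar vessels, by 1.67 in the knockout (adjusted p = 0.0010) and by 1.48 in controls (adjusted p = 0.0026). Itgam and Itgb2 were called lower in cerebellar vessels of the knockout, by -1.66 and -1.17. These 3 of 8, beside 6.80% of all genes, fell to 1 without knockout cerebellar replicate 2 or 3, which left Itgb8. The call of Itgb2 was also lost without replicate 1 of any group or without knockout cerebral replicate 3 (adjusted p up to 0.134). In controls Itgb8 was the 1 of 8 called, beside 2.29% of all genes.

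Of the integrin adaptors and activators, the proteins that tie the tails of the chains to actin or switch them on, 31 of 35 were tested. In knockout cerebral vessels 3 were called higher and 6 lower, with a median of -0.03 against -0.01 over all genes. All genes had 2.45% called higher and 3.93% lower. The list had 4 calls instead of 9 without knockout cerebral replicate 1 or without control cerebral replicate 1, and 5 without control cerebral replicate 2, control cerebellar replicate 1 or 2, or knockout cerebellar replicate 3. Flna, the actin crosslinker filamin A, which binds beta chains and inhibits talin binding, was called lower in both regions, by -0.71 in cerebral and -0.73 in cerebellar vessels (adjusted p = 0.0072 in each). Ptk2b, the kinase Pyk2, was higher by 0.73 in cerebral vessels (adjusted p = 0.0096), and Arhgef7, an exchange factor of focal adhesions, was lower by -0.52 (adjusted p = 0.0094). Fermt3, the integrin activator of blood cells, was called higher by 0.85 (adjusted p = 0.0426), a call kept only without knockout cerebral replicate 2 or else control cerebral replicate 3 among the 12 fits with 1 array left out (adjusted p up to 0.143).

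In knockout cerebellar vessels 2 adaptors were called higher and 4 lower, beside 1.06% and 3.17% of all genes, with a median of 0.01. The count was 3 without control cerebellar replicate 2 or 3. Fhl2, a LIM protein that binds integrin chains, was higher by 0.99 (adjusted p = 6.56e-04). Lims2, a LIM protein of the integrin-linked kinase complex, was higher by 0.51, and Actn1, the actin crosslinker alpha-actinin 1, lower by -0.50 (adjusted p = 0.0192 and 0.0133). The call of Actn1 was lost without control cerebellar replicate 2, and that of Lims2 without control cerebellar replicate 3 or knockout cerebellar replicate 2 or 3.

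Of the matrix and cell-surface ligands 35 of 41 were tested. In knockout vessels 3 were called higher and 1 lower in cerebral, and 4 higher and 1 lower in cerebellar vessels. The list's medians were -0.07 and 0.02, against -0.01 and 0.01 over all genes. Of all genes, 2.45% were called higher and 3.93% lower in cerebral vessels, and 1.06% and 3.17% in cerebellar vessels. The largest changes were those of 2 chains of collagen VI: Col6a1 rose by 1.46 in cerebral and 1.64 in cerebellar vessels (adjusted p = 6.66e-04 and 3.24e-04), and Col6a2 by 1.02 and 1.34 (adjusted p = 0.0093 and 0.0021). The third chain tested, Col6a3, had changes of 0.098 and 0.186 and was not called; it is named after its values were seen. Col3a1, a fibrillar collagen chain, rose by 0.71 and 0.82, and Mfge8, a ligand of alpha v integrins, fell by 0.31 and 0.32. The cerebral call of Col3a1 was lost without knockout cerebral replicate 1 or 3 or either of control cerebral replicates 2 and 3 (adjusted p up to 0.0939), and its cerebellar call without control cerebellar replicate 2 or 3 or knockout cerebellar replicate 3 (up to 0.0675). That of Mfge8 was lost in cerebral vessels without knockout cerebral replicate 3 (0.0661), and in cerebellar vessels without replicate 2 or 3 of either cerebellar group (up to 0.0780). Lama1, the laminin alpha 1 chain, was called higher in cerebellar vessels (1.15, adjusted p = 0.0390), a call kept only without control cerebral replicate 1 or 2 or knockout cerebellar replicate 2 in such fits (adjusted p up to 0.142). The cerebral count of 4 was 2 without knockout cerebral replicate 3. The cerebellar count of 5 was 2 without control cerebellar replicate 2 or 3 or knockout cerebellar replicate 3. The calls of Col6a1 and Col6a2 in both regions held in all 12 such fits.

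Between regions, 10 of 35 ligands were called higher and 0 lower in cerebellar vessels of the knockout, and 5 higher and 0 lower in those of controls. The medians were 0.27 and 0.20, against 0.00 and -0.02 over all genes. Of all genes, 3.84% and 1.95% were called higher, and 2.96% and 0.333% lower. The count in the knockout was 6 without knockout cerebral replicate 3 or knockout cerebellar replicate 1 or 3. In controls it was 3 without control cerebral replicate 1 and 2 without control cerebellar replicate 2. Lamb1 and Lama2, chains of laminins that alpha 6 and alpha 7 integrins bind, were named after their values were seen. Lamb1 was higher in cerebellar vessels by 1.47 in the knockout and 1.36 in controls (adjusted p = 7.47e-05 and 1.68e-04). Lama2 was higher by 1.41 and 1.03 (adjusted p = 0.0013 and 0.0090). Beside these, the mean of 9 fibroblast markers was 0.70 higher in cerebellar vessels of both genotypes. The mean of 10 pericyte markers was 0.67 higher there in the knockout and 0.56 in controls. Of these 10, 8 were called higher in the knockout and 6 in controls, beside 3.84% and 1.95% of all genes. The mean of 5 ependymal and choroid plexus markers was 0.65 higher there in the knockout and 0.78 in controls, that of the neuron markers 0.83 and 0.28, and that of the astrocyte markers 0.61 and 0.37. Their part was not tested. Col1a1, Col1a2 and Col3a1 stand in both the ligand and the fibroblast list, and Vtn in both the ligand and the pericyte list. Col1a2 and Vtn were among the ligands called higher in the knockout, so these lists are not independent.

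Of the membrane proteins that partner with integrins, 21 of 23 were tested. In knockout cerebral vessels 1 was called higher and 3 lower, and in knockout cerebellar vessels 0 higher and 2 lower. The medians were -0.01 and -0.12, against -0.01 and 0.01 over all genes. Of all genes, 2.45% were called higher and 3.93% lower in cerebral vessels, and 1.06% and 3.17% in cerebellar vessels. Sdc2, the heparan sulfate carrier syndecan 2, fell by 0.71 in cerebral and by 0.52 in cerebellar vessels (adjusted p = 0.0046 and 0.0280), and 2 more probe sets changed by -0.72 and -0.85 in cerebral vessels. Pdgfrb, the growth factor receptor of pericytes and smooth muscle and also one of the pericyte markers above, fell by 0.48 in cerebral vessels (adjusted p = 0.0040). The tetraspanin Cd81 (0.28) and the laminin receptor dystroglycan, Dag1 (-0.27), were also called in cerebral vessels, and Sspn (-0.36), of the dystrophin complex, in cerebellar vessels. Of those not called in cerebellar vessels, Sgca (-0.54), with levels near the filter value, changed more than either called gene, and Adam15 changed by 0.29.

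The partner count of 4 in cerebral vessels was 2 without control cerebral replicate 2, control cerebellar replicate 2, or knockout cerebral replicate 1 or 3. The call of Cd81 was lost without control cerebral replicate 1 or 2, control cerebellar replicate 2, or knockout cerebral replicate 1 or 3 (adjusted p up to 0.112). That of Dag1 was kept only without control cerebellar replicate 3 or knockout cerebellar replicate 1 or 2 (up to 0.141). The cerebellar count of 2 fell to 0 or 1 without any 1 of the 6 cerebellar arrays, and among these fits Sspn kept its call in none (adjusted p up to 0.1003) and Sdc2 only without control cerebellar replicate 1 (up to 0.116). Between regions, 2 partners were called higher and 0 lower in cerebellar vessels of the knockout, led by Pdgfrb at 0.66, and 1 was without knockout cerebral replicate 3 or knockout cerebellar replicate 1 or 2. In controls 1 was called higher, Pdgfrb at 0.44 (lost without control cerebral replicate 1 or control cerebellar replicate 2), and 1 lower, Sdc1 at -0.66 (kept only without control cerebellar replicate 3, knockout cerebral replicate 2 or knockout cerebellar replicate 2). Of all genes, 3.84% were called higher and 2.96% lower in cerebellar vessels of the knockout, and 1.95% and 0.333% in those of controls.

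Of the 31 adaptors, 1 was called higher and 3 lower in cerebellar than in cerebral vessels of the knockout, beside 3.84% and 2.96% of all genes, and none in controls in limma, where 8 of 31 had an unadjusted p under 0.05, as 15.2% of all genes did. The count of 4 in the knockout was 0 to 2 without any 1 knockout array except knockout cerebral replicate 2, and 1 was called in controls without control cerebellar replicate 1.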

How the data were processed

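The deposited table holds log2 expression values of 45101 probe sets on 12 arrays, made by the authors with GCRMA 2.32.0, per the submitters' processing notes; GCRMA corrects background, normalises between arrays and summarises probes. They were used as deposited. The genome build behind the probe annotation is not given in the sources used here.

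Probe sets had to exceed 3.27, the median of all values, on at least 3 of 12 arrays. Two-sided tests were made in R 4.3.3 with limma 3.58.1 (lmFit, eBayes), with 4 group means over 12 arrays (8 residual degrees of freedom) and Benjamini-Hochberg adjustment over 11716 genes. The knockout was also compared on 1 mean per mouse (4 residual degrees of freedom). The procedure was tested on simulated data. The number of arrays limits the precision, and no scan batch is given.

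The replicate number within a genotype was taken as the mouse. Deviations from group means of same-numbered arrays of both regions correlated at 0.573, 0.705 and 0.601 in the knockout and at 0.371, 0.495 and 0.547 in the control, so the mouse was used as a block for regions. Between genotypes the numbers did not pair.

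The members and lists were chosen with earlier results of these data known. Beyond the members, up to 4 genes of each list with the largest change, called ones first, were named in each knockout comparison, and the 3 genes most like a called member. Leaving out each array, other filters, probe sets, scalings, variance models and blocks were tried. Sequences are from RefSeq, GRCm38.p6, with 7 of 10 members matched by symbol.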

Additional observations from a re-analysis of the deposited data

How the results depend on the processing

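Over 1182 refits of single members under other settings, 1116 kept direction and call, 19 gained a call, 14 lost one and 33 turned sign. None of those that turned sign was called before or after. The 3 knockout calls of Itga7 (both regions and mouse means) and its regional call in the knockout held under every setting tried. Its regional call in controls was lost in the fit of those 2 groups' arrays alone (adjusted p = 0.0697) and without control cerebellar replicate 2 (0.0590). The call of Itgb5 between regions in the knockout was lost in 12 of 24 settings, among them no filter (0.0729), the mean of probe sets (0.0556) and the 2 groups' arrays alone (0.106). The cause was not tested, beyond what fewer arrays give.

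The number of members called between regions in the knockout, 2 in the report, was 1 with no filter and with the mean of probe sets. In controls, 1 in the report, it was 3 with array weights (Itga7, Itga8 and Itgav) and 0 with the 2 groups' arrays alone. With 1 array left out, the number was 1 to 2 in knockout against control cerebral vessels, 1 to 2 between regions in the knockout and 0 to 1 in controls.

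With the mouse as a random replicate block the members called between regions were 4 in the knockout and 3 in controls, and with the mouse as a fixed replicate block they were 5 and 2. The replicate number as a block across genotypes, whose same-numbered samples correlated at 0.194, 0.180 and 0.007 in cerebral and 0.259, 0.031 and -0.166 in cerebellar vessels, gave 4 in the knockout and 1 in controls. No block changed a member's call in a knockout comparison.

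With the mean of probe sets, signs turned for Itgb1 (0.056) in knockout against control cerebral vessels and 0.000 on mouse means, for Itga6 (-0.040) in knockout against control cerebellar vessels, and for Itga1 between regions (-0.109 in the knockout, -0.147 in controls). Itgb3 on mouse means turned to -0.011 with centred arrays. Itgb1 in cerebral vessels turned to 0.002 with quantile normalization and to 0.066 with array weights.

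With 1 array left out, knockout minus control ranged in cerebral vessels from -0.098 to 0.069 for Itgb1 and from -0.006 to 0.577 for Itgb3. In cerebellar vessels it ranged from -0.231 to 0.010 for Itga1, -0.001 to 0.110 for Itga6, -0.102 to 0.015 for Itgav and -0.766 to 0.014 for Itgb3. On mouse means it ranged from -0.046 to 0.036 for Itga6, -0.386 to 0.296 for Itgb3 and -0.029 to 0.156 for Itgb5. The difference of effects ranged from -0.028 to 0.213 for Itga1 and -0.014 to 0.425 for Itga8. Cerebellar minus cerebral ranged from -0.020 to 0.145 for Itgav in the knockout. In controls it ranged from -0.059 to 0.182 for Itga1, -0.058 to 0.053 for Itga6, -0.050 to 0.117 for Itgb1, -0.216 to 0.010 for Itgb3 and -0.094 to 0.150 for Itgb5.

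Counts over all genes moved more. Knockout against control cerebral vessels had 748 calls in the report, 1415 with array weights, 1127 with the replicate number as a block, 310 with the 2 groups' arrays alone and 439 to 870 with 1 array left out. Knockout against control cerebellar vessels had 495, and 302 to 496 with 1 left out. Mouse means had 472, against 312 with no filter, 710 with every probe set and 237 to 473 with 1 mouse left out. Between regions of the knockout there were 797, against 508 with no filter, 322 with the 2 groups' arrays alone, 1346 with the number, 1947 with the random mouse and 1723 with the fixed mouse block, and 366 to 1099 with 1 left out. In controls there were 268, against 160, 1078 with array weights, 627, 966 and 915 with these blocks, and 79 to 323. The difference of effects had 5, against 2 with no filter, 0 with the 75th percentile filter and 1 to 20 with 1 left out.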
